A study of Rattus norvegicus with 16 samples.

Results

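Calcium handling in the heart muscle cell was followed through 4 genes: *Atp2a2* (ENSRNOG00000001285.8), *Ryr2* (ENSRNOG00000017060.8), *Slc8a1* (ENSRNOG00000008479.8) and *Cacna1c* (ENSRNOG00000007090.8). They were picked by identifier, by a rule that uses no measured value, though earlier results of these data were known when they were chosen. They are 4 of the 23918 genes in the deposited files. Heart RNA came from 16 male Wistar rats, adults of 240 to 260 g where made diabetic. The 4 control rats carried no agent (dose 0 mg/kg), 6 rats received streptozotocin at 55 mg/kg (D55) and 6 received 100 mg/kg (D100), once, through a tail vein. Streptozotocin destroys beta cells, the source of insulin. A blood glucose above 13 mmol/L was checked a day later, and the rats were followed for 4 days before the hearts were drained of blood, per the labels. The labels name no sham injection for the controls. The question behind the groups, as the series title has it, is how the severity of diabetes appears in cardiac transcripts.

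In each heartbeat, calcium enters the heart muscle cell through the L-type channel, whose pore is encoded by *Cacna1c*. The entry opens the ryanodine receptor, encoded by *Ryr2*, which releases the larger store held in the sarcoplasmic reticulum. For relaxation, the pump SERCA2, encoded by *Atp2a2*, returns calcium to that store, and the sodium-calcium exchanger encoded by *Slc8a1* carries calcium out of the cell. Reduced SERCA2 activity and slowed relaxation are classic features of long-standing diabetic heart disease in rodents, and the balance between pump, exchanger and release channel sets how much calcium the store holds.

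Members differed in how much of a library they filled. *Atp2a2* took 0.545% of the counts on average (0.280 to 0.728% over the 16 libraries) and ranked 11 of 23918 genes by this share. *Ryr2* took 0.078% and ranked 65, *Slc8a1* 0.0079% and ranked 1107, and *Cacna1c* 0.0049% and ranked 1983. These shares grow with transcript length, which was not used here, so they do not order the genes by level. All 4 passed the filter on low counts, with estimated counts of 27031 to 345808 per library for *Atp2a2*, 3958 to 52694 for *Ryr2*, 331 to 5060 for *Slc8a1* and 255 to 5494 for *Cacna1c*. The lowest of these, 255 counts of *Cacna1c* in the shallowest library (D100 F), corresponds to 52.6 CPM (counts scaled to a common library size) with an exact 95% Poisson interval of 46.4 to 59.5 CPM, which covers counting error only. For *Slc8a1* and *Cacna1c* all 16 estimates lay within 0.01 of an integer, while 8 did for *Ryr2* and 1 for *Atp2a2*. The distance from an integer was at most 0.48 counts for *Atp2a2*, 0.05 for *Ryr2*, 0.0042 for *Slc8a1* and 0.0048 for *Cacna1c*. These distances were larger for the genes with more counts and small beside the counts. They do not show how certain a level is, and where they come from was not tested.

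The start regions of the genes are shown because they differ between genes of one pathway: the pump and the release channel have start windows rich in G and C, while the channel pore does not. Each window holds 300 bases, 250 before and 50 after a transcript start, from RefSeq on the build GRCr8 (the counts were made on Rnor_6.0), written 5′ to 3′ on the strand of the gene, in lower case with matches of 3 motifs on either strand in capitals. The first motif, the GC box, was searched as GGGCGG. The second, the CCAAT box, was searched by the letters of its name. The third, the TATA box, was searched as TATAAA.
Atp2a2, chr12:39733269-39733568, plus strand: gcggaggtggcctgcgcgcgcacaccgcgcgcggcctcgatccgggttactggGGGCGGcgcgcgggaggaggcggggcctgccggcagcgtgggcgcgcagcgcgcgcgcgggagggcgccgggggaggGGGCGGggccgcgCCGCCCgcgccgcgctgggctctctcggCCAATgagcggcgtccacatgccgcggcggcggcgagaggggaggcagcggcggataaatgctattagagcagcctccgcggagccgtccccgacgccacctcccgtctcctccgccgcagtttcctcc
Ryr2, chr17:63081277-63081576, plus strand: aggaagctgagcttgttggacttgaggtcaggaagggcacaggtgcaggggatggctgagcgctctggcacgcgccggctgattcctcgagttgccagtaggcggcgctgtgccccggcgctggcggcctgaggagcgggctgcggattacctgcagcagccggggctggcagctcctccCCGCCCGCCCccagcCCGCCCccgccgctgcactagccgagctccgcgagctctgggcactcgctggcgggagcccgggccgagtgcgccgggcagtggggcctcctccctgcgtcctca
Cacna1c, chr4:154051699-154051998, minus strand: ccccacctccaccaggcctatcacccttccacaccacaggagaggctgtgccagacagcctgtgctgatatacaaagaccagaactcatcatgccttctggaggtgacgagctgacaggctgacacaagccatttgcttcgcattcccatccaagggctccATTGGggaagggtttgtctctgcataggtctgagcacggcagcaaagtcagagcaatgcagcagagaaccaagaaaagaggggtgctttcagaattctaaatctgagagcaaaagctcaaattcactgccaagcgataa
The *Atp2a2* window is 79% G and C, higher than 98.8% of the 33469 windows in the table, with 52 CpG dinucleotides, 3 GC boxes and 1 CCAAT box. The *Ryr2* window is 73% G and C, with 28 CpG dinucleotides and 3 GC boxes, the first 2 of which overlap. The *Cacna1c* window is 51.7% G and C, equal to the median window, with 4 CpG dinucleotides, 1 CCAAT box and 0 GC boxes, and its start lies 184 bases inside the outermost one annotated. Of all windows, 33.1% hold a GC box, 37.5% a CCAAT box and 14.2% a TATA box, and 0 of the 4 windows hold TATAAA. The window listed for *Slc8a1* (36.3% G and C, 2 CCAAT boxes) starts 48061 bases inside the annotated gene and is not printed. RefSeq lists 30 transcripts for *Slc8a1*, 32 for *Cacna1c*, 20 for *Ryr2* and 3 for *Atp2a2*, and the gene counts do not tell which start was used. A match is a description of letters and not of a working site.

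Total counts ran from 4.69 to 48.4 M per library, and D100 libraries were shallower as a group. The 10 most abundant genes, none of them a member, took (the top-10 share) 30.1% to 69.0% of the counts, least in D55 B and E and most in D100 B. The share ran from 43.3% to 59.4% in the controls, 30.1% to 54.7% in D55 and 53.4% to 69.0% in D100. The doses thus hardly overlap in it, and a fit with the share as covariate cannot well tell dose from share. Values without D55 B and E, or with this share as a covariate, are also given for some results. What part the share has in them was not tested otherwise. Levels are CPM scaled by the trimmed mean of M-values (TMM). The files pair no identifier with a name, so levels of the defining markers of heart muscle, endothelium, fibroblasts or blood were not analysed here; in whole heart tissue, fewer muscle cells and less RNA per muscle cell cannot be told apart.

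None of the 4 genes passed the threshold in any of the 3 comparisons (edgeR quasi-likelihood test, Benjamini-Hochberg adjusted p under 0.05 over 14175 genes). For D55 against control, 0 of 4 were called, where 0.0635% of all tested genes were. For D100 against control, 0 of 4 were called, where 4.38% were. For D100 against D55, 0 of 4 were called, where 35.6% of all genes were. At an unadjusted p under 0.05 the counts were 0, 0 and 1 of 4, the 1 being *Cacna1c* between the doses, beside 8.97%, 22.8% and 51.4% of all genes. For 0 of 4 genes did the groups of any comparison stand clear of each other, beside 2.55%, 7.57% and 4.20% of all genes. DESeq2 also called 0 of 4 in each comparison. limma-voom with quality weights called 0 in D55 against control, 1 in D100 against control (*Atp2a2*) and 2 in D100 against D55 (*Atp2a2* and *Ryr2*), where it called 9594 and 7068 of all 14175 genes. The background between the doses also depended on which libraries entered: the count of genes called went from 5041 to 123 without D55 B and E together, 1172 when D55 B alone was left out, 1403 for D55 E, 1965 for D100 A, 1721 for D100 B, 2173 for D100 C and 2723 for D100 D. Some other single omissions raised it, most to 6745 (D55 D), 6683 (D100 F), 6547 (D100 E) and 6031 (D55 A). The median log2 fold change of the 4 was 0.02 in D55 and -0.11 in D100 against control and -0.18 between the doses, beside 0.03, -0.03 and -0.03 over all tested genes. The 2 comparisons with control share the same 4 control libraries.

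**Figure D1:**
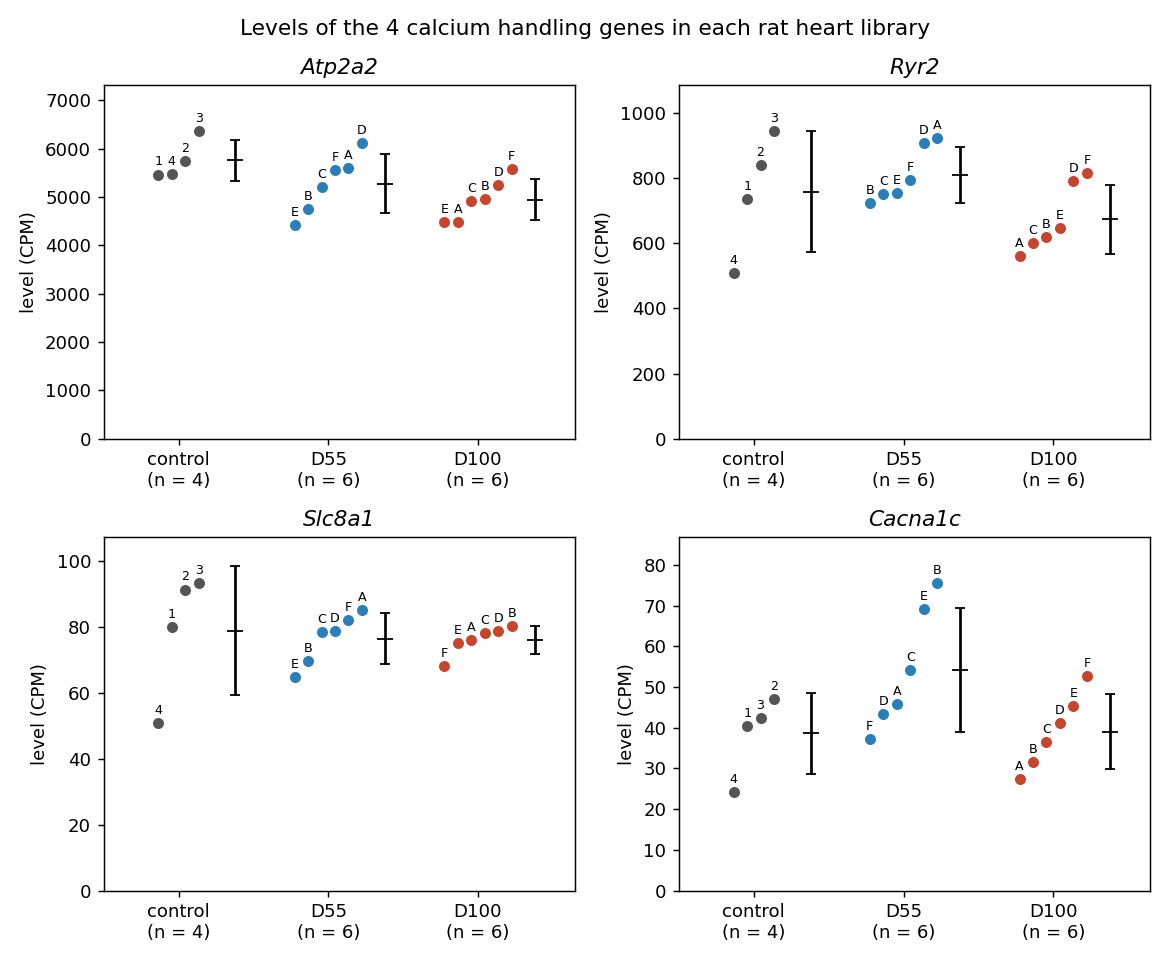
Level in CPM (linear axis from 0) of each gene in the control (n = 4), D55 (n = 6) and D100 (n = 6) libraries. Each point is 1 rat, labelled by replicate and spread sideways by value for legibility, and the black marks give mean and SD; the groups overlap for every gene, control 4 lies lowest for *Ryr2*, *Slc8a1* and *Cacna1c*, and D55 B and E lie highest for *Cacna1c*.

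The reuptake pump transcript, *Atp2a2*, had its highest mean in the controls and its lowest in D100, with overlapping groups. Its level in the controls was 5466, 5741, 6363 and 5473 CPM. In D55 it ran from 4426 through a median of 5382 to 6121 CPM, and in D100 from 4475 through 4939 to 5580 CPM. Its means were, in order of dose, 5761 ± 422 CPM (SD, n = 4), 5278 ± 616 (SD, n = 6) and 4944 ± 429 (SD, n = 6), and neighbouring groups overlapped: the highest D100 library, F, lay above 2 of the 4 controls. The log2 fold change was -0.13 in D55 (SE 0.14, edgeR adjusted p = 0.731) and -0.22 in D100 (SE 0.14, adjusted p = 0.335). The 95% interval for D100 against control spans 0.701- to 1.05-fold. Between the doses the value was -0.09 (SE 0.12, edgeR adjusted p = 0.549), -0.18 (adjusted p = 0.348) without D55 B and E and -0.26 (adjusted p = 0.274) with the top-10 share as covariate. When the top-10 share entered the fit as covariate, *Atp2a2* was called lower in D100 than in control (log2 fold change -0.33, adjusted p = 0.0296), beside 9.93% of all tested genes called. It was also called there in limma-voom (-0.19, adjusted p = 0.0251), beside 67.7% of all genes, and without scaling factors (-0.65, adjusted p = 0.0349), beside 8.27%. Over all its alternatives in that comparison the adjusted p ran from 0.0251 to 0.531, and with the covariate but no D55 B and E the change was -0.27 (SE 0.10, unadjusted p = 0.0164, edgeR adjusted p = 0.143). In the controls the SD of log2 CPM was 0.10, below that of all but 6.46% of tested genes and below that of the other 3 members. It was 0.17 in D55, where *Ryr2* and *Slc8a1* varied less (0.15 each), and 0.12 in D100, where *Slc8a1* did.

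The release channel transcript, *Ryr2*, stood at 737, 840.4, 944 and 509.6 CPM in controls 1 to 4. It ran from 725 through 773 to 924 CPM in D55 and from 562 through 634 to 817 CPM in D100. Control 4 was the lowest of all 16 libraries, and 4 of the 6 D100 libraries lay below every D55 library. The control mean was 758 ± 186 CPM (SD, n = 4), that of D55 809 ± 85.7 (SD, n = 6) and that of D100 673 ± 106 (SD, n = 6). The log2 fold change between the doses was -0.27 (SE 0.15, edgeR adjusted p = 0.163), with an interval of 0.666- to 1.04-fold. limma-voom called this difference (-0.40, adjusted p = 0.015), beside 49.9% of all tested genes, and over its alternatives the adjusted p ran from 0.0092 to 0.518. Against control it was 0.09 in D55 (SE 0.17, adjusted p = 0.844) and -0.17 in D100 (SE 0.17, adjusted p = 0.535). Control 4 moved both: without it they were -0.06 and -0.32, and without control 3, the highest, they were 0.22 and -0.05.

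The exchanger transcript, *Slc8a1*, was nearly level across the groups. Its controls stood at 80.1, 91.4, 93.5 and 50.9 CPM. In D55 it ran from 64.7 through 78.7 to 85.1 CPM and in D100 from 68.3 through 77.1 to 80.4 CPM, so D100 lay wholly within the range of the controls. Means were 79.0 ± 19.6 CPM (SD, n = 4), 76.5 ± 7.78 (SD, n = 6) and 76.2 ± 4.30 (SD, n = 6). The D100 libraries differed among themselves by an SD of 0.08 in log2 CPM, lower than in all but 0.691% of tested genes, while in the controls the SD was 0.41, at the 67.7th percentile. Its log2 fold changes were -0.05 in D55 (SE 0.15, edgeR adjusted p = 0.92), -0.05 in D100 (SE 0.15, adjusted p = 0.84) and -0.01 between the doses (SE 0.14, adjusted p = 0.975). The interval between the doses spans 0.816- to 1.22-fold, which leaves out a 1.5-fold change in either direction. Without control 4 the changes against control were -0.21 in each dose. Without D55 B and E the D55 value was 0.040, and with the top-10 share as covariate the D100 value was -0.16 (edgeR adjusted p = 0.549) and that between the doses -0.17 (adjusted p = 0.705).

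The L-type channel transcript, *Cacna1c*, varied most. Its controls stood at 40.5, 47.1, 42.4 and 24.3 CPM. It ran from 37.2 through 49.96 to 75.6 CPM in D55 and from 27.3 through 38.8 to 52.6 CPM in D100. The 2 highest values of the series were D55 B (75.6 CPM) and D55 E (69.2 CPM), and the lowest was control 4. The control mean was 38.6 ± 9.92 CPM (SD, n = 4), that of D55 54.2 ± 15.2 (SD, n = 6) and that of D100 39.1 ± 9.26 (SD, n = 6). The log2 fold change was 0.49 in D55 against control (SE 0.24, edgeR adjusted p = 0.554; interval 0.993- to 1.99-fold) and 0.02 in D100 against control (SE 0.24, adjusted p = 0.974). The D55 value was 0.23 without D55 B and E, 0.25 with the top-10 share as covariate, 0.32 without control 4 and 0.094 in limma-voom. The D100 value was 0.35 with the covariate (SE 0.17, unadjusted p = 0.0558, edgeR adjusted p = 0.217), -0.15 without control 4 and -0.19 in limma-voom. Between the doses it was -0.48 (SE 0.21, unadjusted p = 0.0379, edgeR adjusted p = 0.0802). This difference was called when D55 F (-0.56, adjusted p = 0.0476) or D100 F (-0.58, adjusted p = 0.0401) was left out, beside 37.6% and 47.3% of all tested genes. It was -0.21 (adjusted p = 0.51) without D55 B and E. With the top-10 share as covariate it was 0.11 (adjusted p = 0.858), a fit in which share and dose are hardly separable. Over its alternatives the adjusted p ran from 0.0171 to 0.878.

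**Figure D2:**
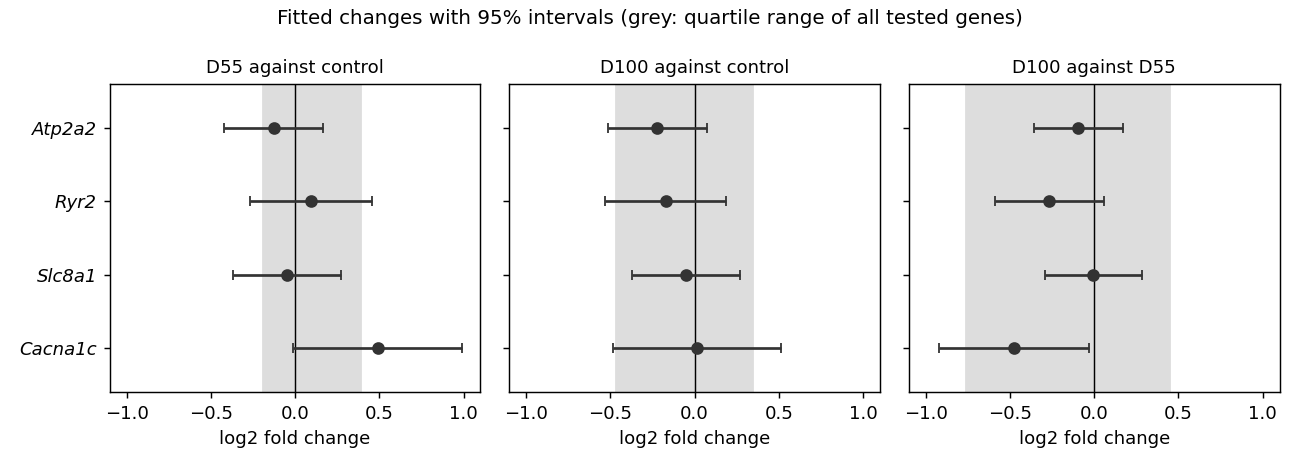
Log2 fold change of each gene (horizontal axis) in the 3 comparisons, with its 95% interval from the edgeR fit over all libraries. The grey band spans the lower to the upper quartile of all 14175 tested genes; the interval of *Cacna1c* between the doses, -0.92 to -0.03, is the only one of the 12 that leaves out 0, and its adjusted p is 0.0802.

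Ratios of 2 genes within a library need no scaling factor, so they show whether the genes moved unequally. For the 6 pairs and 3 comparisons, 18 exact two-sided permutation tests on the log2 ratio of estimated counts were made, and 0 passed after adjustment (lowest adjusted p = 0.323), while 2 had an unadjusted exact p under 0.05. Both concerned the pump and the release channel. The log2 ratio of *Atp2a2* to *Ryr2* counts was 2.89, 2.77, 2.75 and 3.42 in the controls. It ran from 2.55 through 2.73 to 2.81 in D55 and from 2.73 through 2.89 to 3.03 in D100. Means were 2.96 ± 0.32 (SD, n = 4), 2.70 ± 0.10 (SD, n = 6) and 2.89 ± 0.14 (SD, n = 6). The D55 mean was lower than the control mean by a difference of -0.26 (exact p = 0.0429, adjusted 0.323), which shrank to -0.10 without control 4. D100 exceeded D55 by 0.18 (exact p = 0.0455, adjusted 0.323), with the groups overlapping.

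The other ratios showed which libraries set the spread. The log2 ratio of *Ryr2* to *Slc8a1* was nearly constant in the controls, at 3.27 ± 0.07 (SD, n = 4), and remained so in control 4 (3.32). The D55 mean was 3.40 ± 0.12 (SD, n = 6) and the D100 mean 3.13 ± 0.27 (SD, n = 6), a difference of -0.27 between the doses (exact p = 0.0541, adjusted 0.323). The log2 ratio of *Slc8a1* to *Cacna1c* had a control mean of 1.04 ± 0.08 (SD, n = 4), a D55 mean of 0.54 ± 0.54 (SD, n = 6) and a D100 mean of 0.996 ± 0.407 (SD, n = 6). It fell to -0.12 in D55 B and -0.10 in D55 E, the 2 libraries of the series with more *Cacna1c* than *Slc8a1* counts. Without them the D55 difference from control changed from -0.50 (exact p = 0.11) to -0.18 (exact p = 0.229). In control 4, the exchanger, the release channel and the channel pore were low together while the pump was not. Against the mean of the other controls on the log2 CPM scale, control 4 stood at -0.71 for *Ryr2*, -0.79 for *Slc8a1* and -0.83 for *Cacna1c*, with 5.57%, 4.20% and 3.76% of tested genes at or below these values, and at -0.09 for *Atp2a2*, where 35.2% of genes were.

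**Figure D3:**
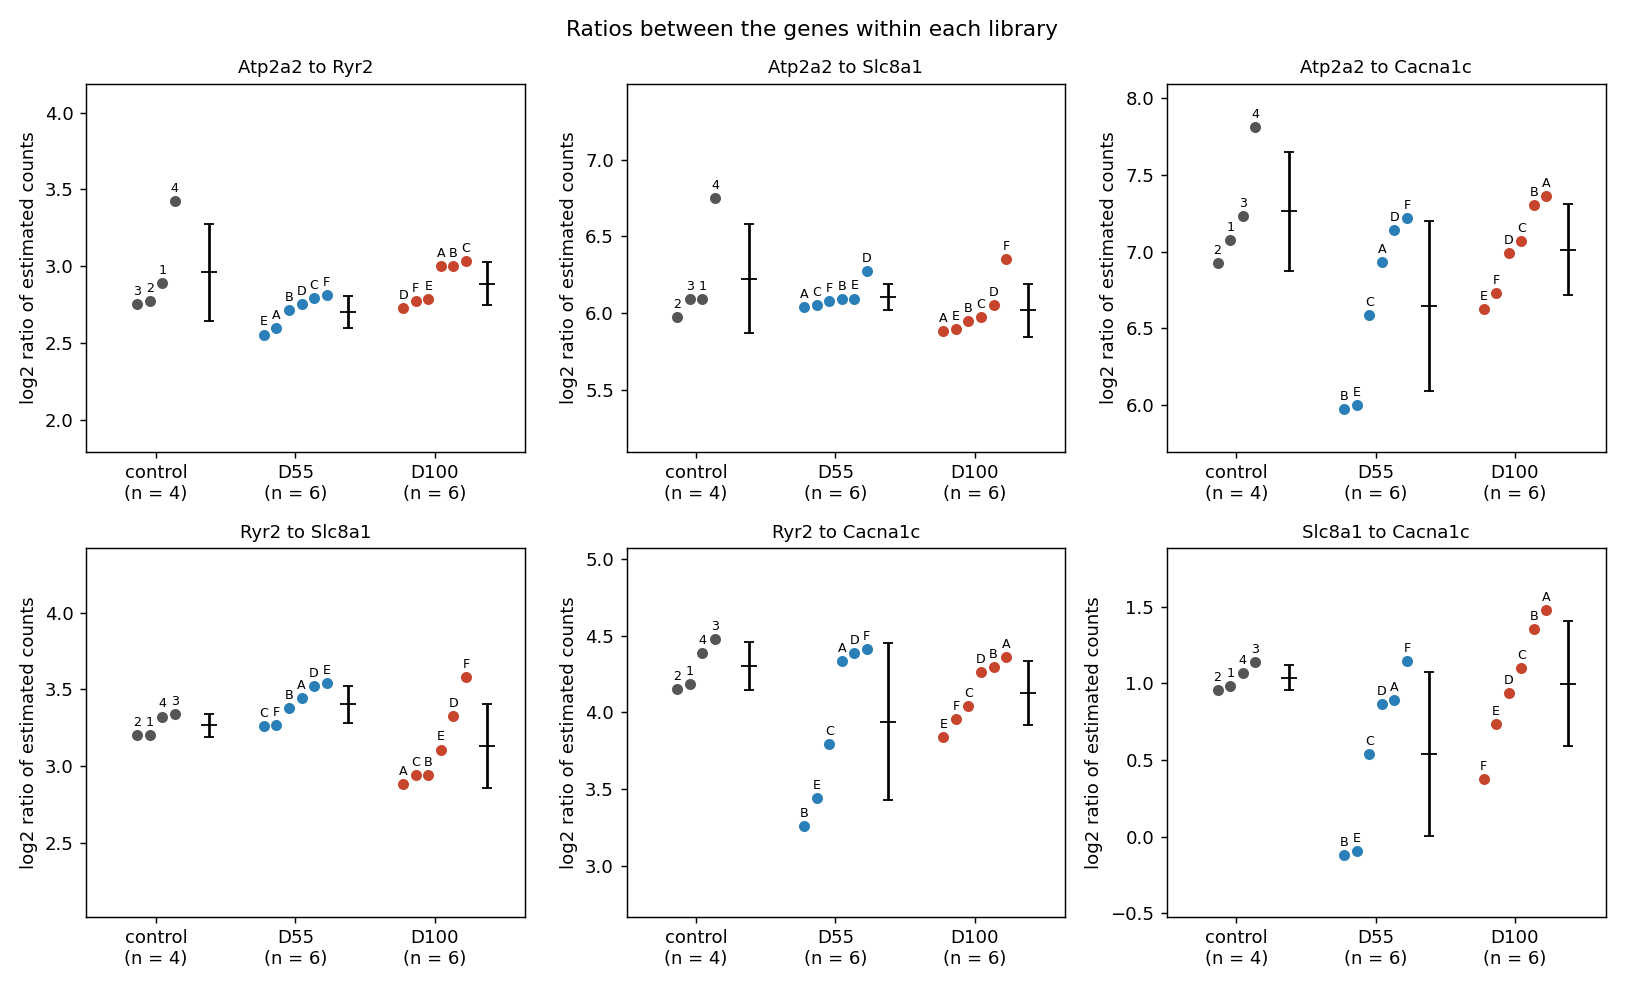
Log2 ratio of estimated counts for each pair of genes within a library, by group, with points labelled by replicate and spread sideways by value, and mean and SD in black; each panel spans the same range of log2 units. Control 4 stands above the other controls in the 3 ratios with *Atp2a2*, and D55 B and E lie lowest in the 3 ratios to *Cacna1c*.

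Across the 16 libraries, 10 relations were computed on log2 CPM, 6 between members and 4 with the top-10 share. All points share their library's scaling factor and depth. The pump and the release channel varied together: Pearson's r was 0.62 (permutation p = 0.0106, adjusted 0.0363) and Spearman's rho 0.73 (permutation p = 0.0018, adjusted 0.0178). Leaving out the 2 libraries with *Atp2a2* farthest from its median, D55 E and D100 E, gave r = 0.71, and deviations from the group means gave r = 0.67. The release channel and the exchanger had r = 0.61 (permutation p = 0.0109, adjusted 0.0363) and rho = 0.59 (permutation p = 0.0186, adjusted 0.0465), and deviations from the group means gave r = 0.69. The pooled r was 0.38 without control 4 and D100 A and 0.37 without control 4 alone, so its size over all libraries leaned on control 4. Within the groups of 6 the same pair had r = 0.67 in D55 and -0.50 in D100. The pump and the exchanger had r = 0.36 (permutation p = 0.172) and rho = 0.60 (permutation p = 0.0151, adjusted 0.0465). Their r was 0.86 within D55 and -0.38 within D100, given without a test. *Ryr2* and *Cacna1c* had r = 0.56 (permutation p = 0.0243, adjusted 0.0607), and r was 0.18 without control 4 and D100 A. For this pair r was -0.66 within D55 and 0.81 within D100, given without a test. The relations of *Atp2a2* and *Slc8a1* to *Cacna1c* did not pass (r = -0.12 and 0.11, permutation p = 0.657 and 0.68). Within the groups of 6 these pairs had other values: *Atp2a2* and *Cacna1c* had r = -0.86 in D55 and 0.56 in D100, and *Slc8a1* and *Cacna1c* had r = -0.86 in D55 and -0.65 in D100, given without a test.

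*Cacna1c* was lower where the top-10 share was higher. Over 16 libraries r was -0.75 (permutation p = 0.00099, adjusted 0.0099) and rho -0.70 (permutation p = 0.00357, adjusted 0.0178). Without D55 B and E, the farthest from the median share, r was -0.50 (permutation p = 0.0701, n = 14) and rho -0.55 (permutation p = 0.0436). Within D55 r was -0.97 (exact permutation p = 0.00694, adjusted 0.0278 over 8 tests) and within D100 -0.83 (exact permutation p = 0.0458, adjusted 0.0733), each over 6 libraries; the ranks gave -0.94 and -0.83 (exact permutation adjusted p = 0.117 for both). Such a relation was common, since 27.6% of the 14175 tested genes had an r at or below that of *Cacna1c*. Over all libraries *Atp2a2* (r = 0.15), *Ryr2* (-0.24) and *Slc8a1* (0.25) had no relation that passed (adjusted permutation p of 0.539 to 0.68). Within D55 the scaled level of *Atp2a2* was higher where the share was higher (r = 0.96, exact permutation p = 0.00556, adjusted 0.0278), though its ranks did not pass (rho = 0.89, exact permutation adjusted p = 0.117). Within D100 its r was -0.18 (exact permutation p = 0.7). *Slc8a1* had r = 0.90 within D55 and 0.82 within D100 (exact permutation p = 0.0306 and adjusted 0.0612 for each). *Ryr2* had r = 0.78 within D55 (exact permutation p = 0.0889, adjusted 0.119) and -0.56 within D100 (exact permutation p = 0.222, adjusted 0.254). All these are relations of scaled levels, and within each dose the TMM factor fell as the share rose. On unscaled CPM, *Atp2a2* stood at 7144 in D55 B (share 30.1%) and 5857 in D55 D (54.7%), the reverse order. *Slc8a1* stood at 70.6 in D100 F (53.4%) and 45.4 in D100 B (69.0%), also reversed. *Cacna1c* kept its order, at 113.5 in D55 B and 41.4 in D55 D. Unscaled relations to the share were not tested.

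**Figure D4:**
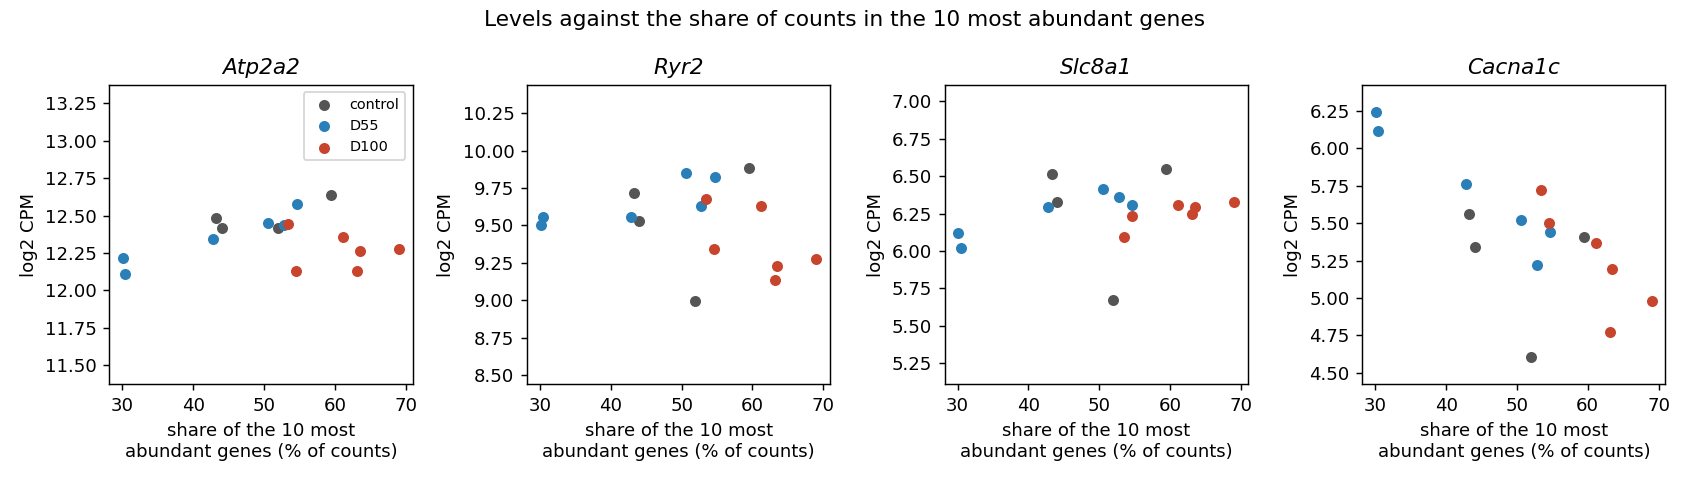
Log2 CPM of each gene against the share of a library's counts taken by the 10 most abundant genes (percent), 1 point per library, with equal vertical spans of 2 log2 units. *Cacna1c* falls from 6.24 in D55 B, with a share of 30.1%, to 4.98 in D100 B, with a share of 69.0%, while control 4 (share 51.9%) lies below the other points for *Ryr2*, *Slc8a1* and *Cacna1c*.

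Likeness to other genes was taken as Pearson's r of log2 CPM over the 16 libraries among genes with a mean of at least 5 CPM, 8650 of them besides the members. Seen from *Ryr2*, *Atp2a2* ranked 44, *Slc8a1* 53 and *Cacna1c* 81 of 8653 genes. Without control 4 the r of *Ryr2* was 0.81 with *Atp2a2*, 0.37 with *Slc8a1* and 0.39 with *Cacna1c*. From *Atp2a2*, the ranks were 121 for *Ryr2*, 964 for *Slc8a1* and 6187 for *Cacna1c*. From *Slc8a1*, they were 134 for *Ryr2*, 1272 for *Atp2a2* and 4171 for *Cacna1c*. Seen from *Cacna1c*, the nearest member was *Ryr2* at rank 2304, so the channel pore had many genes closer to it than any member. The closest gene to *Atp2a2* was ENSRNOG00000005877.6 (r = 0.89), to *Ryr2* ENSRNOG00000051440.1 (r = 0.82), to *Slc8a1* ENSRNOG00000004473.6 (r = 0.91) and to *Cacna1c* ENSRNOG00000017879.5 (r = 0.95). The files do not pair these identifiers with names. For *Cacna1c* 18 genes had r above 0.9, against 0 for *Atp2a2* and *Ryr2* and 1 for *Slc8a1*.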

How the data were processed

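For each of 16 rats, 400 ng of heart RNA went into a stranded mRNA library, per the labels. The authors deposited estimated counts per gene; the submitters' processing notes name kallisto 0.43.1 and Rnor_6.0, without annotation release or strand setting. Kallisto divides reads shared by similar transcripts. Gene names of the 4 members came with their identifiers; the reference table (47357 rows, GRCr8) holds 0 Ensembl identifiers, so planned lists of other calcium genes and cell markers could not be matched.

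Estimates were rounded. In R 4.3.3, edgeR 4.0.16 kept 14175 genes (filterByExpr), scaled by TMM and fitted 1 coefficient per group over all 16 libraries. SEs come from the quasi-likelihood F. Log2 CPM used a prior count of 2. Ratios used unrounded counts. Correlations used 100000 permutations, or every order within groups of 6. Alternatives used DESeq2 1.42.0 and limma 3.58.1. The fit was also run on simulated counts with set changes in some genes. These did not copy the differences in top-10 share between libraries, and no result here rests on them. No pair of libraries in a group was a duplicate (lowest chi-square per degree of freedom 12.0). Replicate letters did not pair D55 with D100 (correlations of deviations -0.50 to 0.63). The rule for named genes took the 4 members and, lacking names, the closest identifier to each. Members, lists and alternatives were chosen with earlier results of these data known.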

Additional observations from a re-analysis of the deposited data

Results flagged for a closer look

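Of 30 sets of values checked (4 levels and 6 ratios in 3 groups), 3 held a library far from the rest of its group, by a gap that is large for the range of the group. Chance alone flags about 1 set in 20. All 3 concern the log2 ratio of *Atp2a2* to *Slc8a1* counts, the pump against the exchanger. The ratio was 6.75 in control 4, against 5.97 to 6.09 in the other controls. It was 6.28 in D55 D, against 6.04 to 6.10 in the other D55 libraries. It was 6.35 in D100 F, the shallowest library, against 5.88 to 6.05 in the other D100 libraries. The gene that stood out differed. In control 4, *Slc8a1* was the lowest of the controls (50.9 CPM). In D55 D, *Atp2a2* was the highest of D55 (6121 CPM), while *Slc8a1* (78.9 CPM) was near the D55 median of 78.7. D100 F had the highest *Atp2a2* (5580 CPM) and the lowest *Slc8a1* (68.3 CPM) of D100.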

How the results depend on the processing

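Of the alternative values for single members, 288 kept direction and side of the threshold, 11 passed it and 29 changed sign, all of them uncalled. Without scaling factors the median of all genes moved to 0.20 in D55 and -0.48 in D100 against control and to -0.65 between the doses. There *Atp2a2* (0.032) and *Slc8a1* (0.11) changed sign in D55 and *Cacna1c* in D100 (-0.40). *Atp2a2* was called in D100 (-0.65), beside 8.27% of all tested genes. All 4 were called between the doses (*Atp2a2* -0.68, *Ryr2* -0.84, *Slc8a1* -0.62, *Cacna1c* -1.11). Beside them, 49.5% of all tested genes were called there, 6875 lower and 141 higher. Relative to the median of all genes between the doses, the 4 stood at -0.03, -0.19, 0.03 and -0.45. limma-voom gave *Atp2a2* 0.0031 and *Slc8a1* 0.026 in D55, and *Atp2a2* -0.19 (called, the 1 member, beside 67.7% of all genes) and *Cacna1c* -0.19 in D100. It called 2 between the doses (*Atp2a2* -0.19, *Ryr2* -0.40), beside 49.9% of all genes. With the share of counts in a library's top 10 genes as covariate, *Slc8a1* was 0.0064 in D55 and *Cacna1c* 0.11 between the doses. *Atp2a2* was -0.33 in D100 in that fit (called, beside 9.93% of all genes). *Slc8a1* between the doses was 0.0097 with DESeq2's scaling and 0.011 in its test. Without D55 B and E *Slc8a1* was 0.040 in D55 and the *Ryr2* to *Cacna1c* ratio -0.11 between the doses. Chosen after seeing the data, leaving out D55 B and E with the covariate gave *Slc8a1* 0.038 in D55 and *Cacna1c* 0.098 between the doses, and leaving out D55 B, D55 E and D100 F gave *Slc8a1* 0.040 in D55 and *Cacna1c* -0.084 in D100. Medians turned the *Atp2a2* to *Ryr2* ratio in D100 to 0.061. The causes were not tested.

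Leaving out 1 library gave *Ryr2* -0.056 to 0.22 and *Slc8a1* -0.21 to 0.045 in D55, *Slc8a1* -0.21 to 0.039 and *Cacna1c* -0.15 to 0.13 in D100, and *Slc8a1* -0.045 to 0.027 and *Cacna1c* -0.58 to -0.35 between the doses, with 0 to 1 member called. The 1 was *Cacna1c* between the doses, without D55 F or D100 F, where 37.6% and 47.3% of all genes were called. With 1 library left out, ratios ranged from -0.14 to 0.082 (*Atp2a2* to *Ryr2*, D100), -0.20 to 0.055 (*Atp2a2* to *Slc8a1*, D55) and -0.14 to 0.083 (*Slc8a1* to *Cacna1c*, D100). With the replicate letter as a replicate block, in D55 and D100 alone, *Cacna1c* was -0.47 between the doses (adjusted p = 0.136). There 0 of 4 members were called and no ratio passed. The block fit called 0 of 13295 genes, where the same 2 groups alone without the block gave 3018. The first fit, over all 16 libraries, called 5041 of 14175. D55 and D100 share only letters: 1 of 6 letters correlated best with its own. Over the alternatives the count of all genes called ran from 0 to 522 (9 in the first fit) in D55, 180 to 9594 (621) in D100 and 0 to 7068 (5041) between the doses, where it was 41 with the covariate and 123 when D55 B and E were left out. The planned lists of calcium genes and cell markers were not run, because no name could be matched. The lowest count of any member was 255, for *Cacna1c* in D100 F. Its counting interval of 46.4 to 59.5 CPM stands beside an SD of 9.26 CPM over the D100 libraries. That shallowest library had the highest D100 level of *Cacna1c* (52.6 CPM) and of *Ryr2* (817 CPM).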
